A study of Rattus norvegicus with 12 samples.

Results

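The 9 genes described here encode ligands of the EGF family and the ERBB receptors they bind, and were chosen by symbol from the 18483 genes of the count and FPKM tables. The ligands were Hbegf (NCBI gene 25433), Areg (29183), Ereg (59325), Tgfa (24827) and Nrg1 (112400). The receptors were Egfr (24329), Erbb2 (24337), Erbb3 (29496) and Erbb4 (59323). All 9 passed the filter on low counts that kept 13967 genes for testing. RNA-seq was done in neonatal rat ventricular myocytes (NRVMs), which are cardiac muscle cells isolated from newborn Sprague-Dawley rats and cultured in DMEM with insulin, transferrin and selenium. The 4 groups of 3 biological replicates were cells transfected with the control siRNA (siNeg), siNeg cells given phenylephrine (PE) for 36 h (siNeg PE), cells transfected with an siRNA against Slc39a2 (siSlc39a2), and siSlc39a2 cells given PE for 36 h (siSlc39a2 PE). The duration is that of the sample labels, and the culture methods of the study give a longer one. PE is an alpha1-adrenergic agonist that makes NRVMs hypertrophic, and Slc39a2 is a zinc importer. The knockdown used 1 siRNA, so effects of its sequence on other genes cannot be told apart from those of losing Slc39a2.

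EGF family ligands are made as membrane precursors, and ADAM metalloproteases cut them free so that they reach receptors on the same or a neighbouring cell. The receptors pair up, phosphorylate each other and pass the signal to the RAS-ERK and PI3K pathways. ERBB2 has no known ligand of its own, and ERBB3 has little kinase activity, so both act mainly with partners. In the heart, shedding of HB-EGF is known to relay signals from G protein-coupled receptors, such as the adrenergic receptors, to EGFR, and neuregulin 1 from endothelial cells acts on ERBB4 and ERBB2 of cardiomyocytes.

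Each sample held from 24065539 to 28603854 expected counts in total. Levels are given as CPM of the TMM-normalized library size, and levels of different genes are compared only as FPKM, which are divided by length. Slc39a2 was at 1.97, 1.89 and 2.32 CPM in siNeg, at 3.50, 6.96 and 6.68 in siNeg PE, at 0.726, 0.373 and 0.078 in siSlc39a2, and at 1.16, 0.862 and 1.38 in siSlc39a2 PE. It was lower in the knockdown without PE (log2 fold change -2.35, SE 0.46, adjusted p = 0.00098) and with PE (-2.33, SE 0.38, adjusted p = 0.000224), as labelled. All 10 cardiomyocyte markers were present, with summed levels of 55400 to 57000 CPM in siNeg, 61400 to 66400 in siNeg PE, 45600 to 46800 in the siSlc39a2 samples and 63700 to 67400 in siSlc39a2 PE. Markers of other cells differed between the groups. The 8 fibroblast markers summed to between 13900 and 18300 CPM in siNeg, 9170 and 11800 in siNeg PE, 5340 and 5640 in siSlc39a2, and 3580 and 4950 in siSlc39a2 PE. The 7 macrophage markers in the tables summed to between 82.2 and 121 CPM, 39.3 and 52.9, 42.2 and 54.8, and 30.7 and 36.8 in the same order, and the 6 epicardial markers to between 51.5 and 63.0, 43.7 and 51.8, 26.8 and 31.9, and 25.6 and 32. The 7 smooth muscle markers, among which Des is also a cardiomyocyte gene, summed to between 6390 and 7090 CPM, 6460 and 6790, 3880 and 4300, and 6210 and 6870. The 8 endothelial markers stayed between 17.3 and 27.3 CPM in all samples, and the 6 Schwann cell markers, of which Cdh19 was at 0 in every sample, did not exceed 2.54 CPM. The sums do not stand for every marker. Lyz2 had a mean of 76.7 CPM in the siNeg macrophage sum of 97.2. Of the epicardial markers, Wt1 (2.84 and 3.55 CPM) and Tbx18 (9.67 and 10.6) were not lower in siSlc39a2 than in siNeg by group mean. Upk1b went from 4.55 in siNeg to 12.8 in siNeg PE. In bulk samples, fewer cells of a type cannot be told apart from less marker RNA per cell. The part of these other cells in the results for the ligands and receptors was not tested.

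A gene was said to have passed the test at an adjusted p below 0.05 by edgeR's quasi-likelihood test over all genes. PE in siNeg cells raised 2 of the 9 genes, Areg and Tgfa, and lowered 2, Nrg1 and Erbb2, where 49.7% of all genes tested passed in either direction. Knockdown without PE raised Areg and Tgfa and lowered Hbegf, Erbb2 and Erbb4, 5 of 9 beside 49.2% of all genes. Knockdown with PE raised Hbegf, Areg, Ereg, Nrg1 and Erbb3 and lowered Erbb2 and Erbb4, 7 of 9 beside 57.3%. PE in siSlc39a2 cells raised Hbegf and Tgfa and lowered Erbb2, 3 of 9 beside 60.0%. With an absolute log2 fold change above 1 as well, the counts were 3 for PE in siNeg cells (6.6% of all genes), 1 for knockdown without PE (9.78%), 2 for knockdown with PE (11.6%) and 1 for PE in siSlc39a2 cells (10.5%). The CPM of the groups did not overlap for 6 of the 9 with PE in siNeg cells (59.8% of all genes), 6 with knockdown without PE (58.5%), 7 with knockdown with PE (63.5%) and 6 with PE in siSlc39a2 cells (65.2%). With only 9 genes, nothing particular to them is read from these counts, and the comparisons share groups, so that their counts are not independent. The knockdown effect differed between cells with and without PE for 2 of the 9, Hbegf and Nrg1, where 3.61% of all genes passed this test of interaction and 0.988% also had a difference above 1 on the log2 scale, as both genes did.

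**Figure D1:**
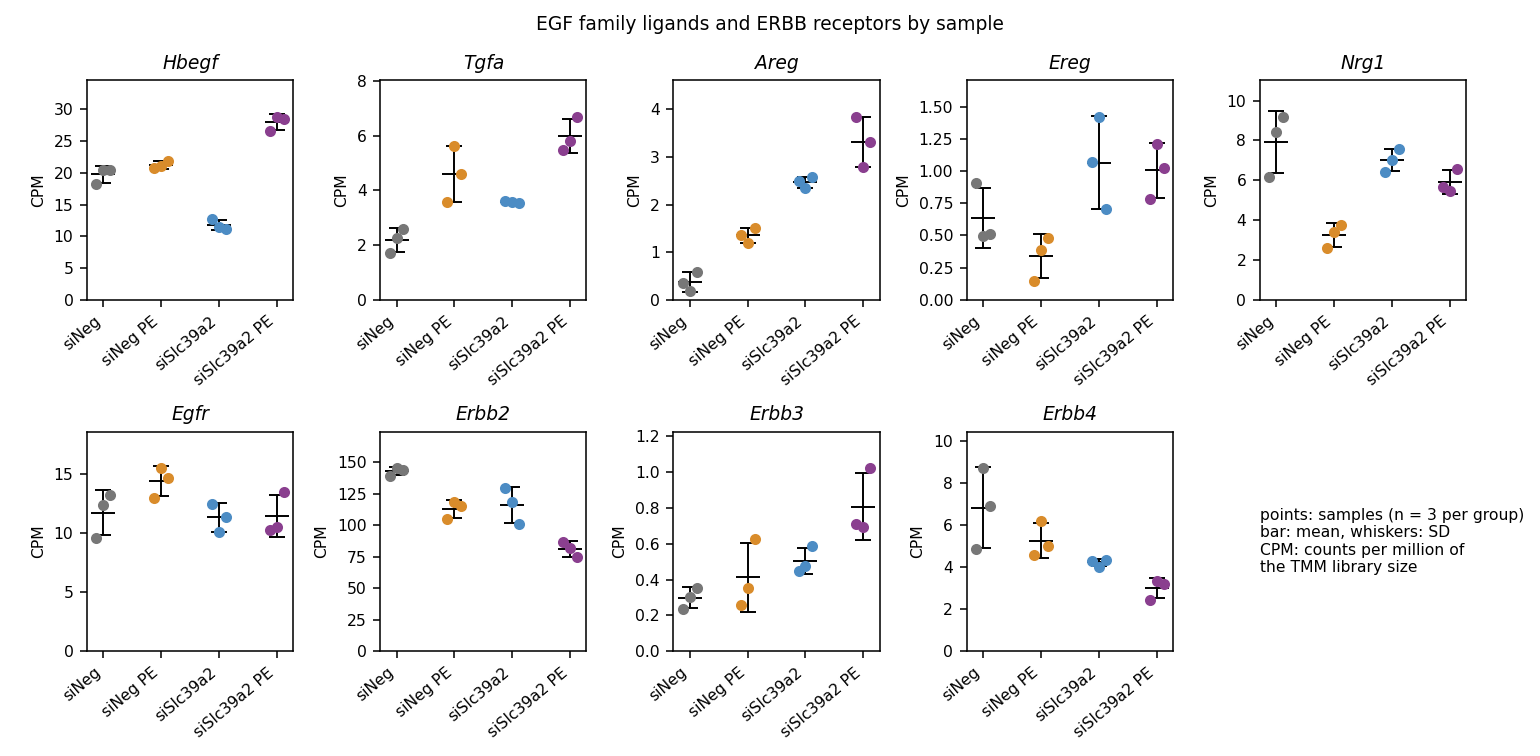
Level of each ligand and receptor gene in CPM (vertical axes, each from 0) in the 12 samples by group. Points are samples, horizontal bars the mean and whiskers the SD (n = 3). Areg is lowest in the siNeg samples and Erbb2 is lowest in the siSlc39a2 PE samples.

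**Figure D2:**
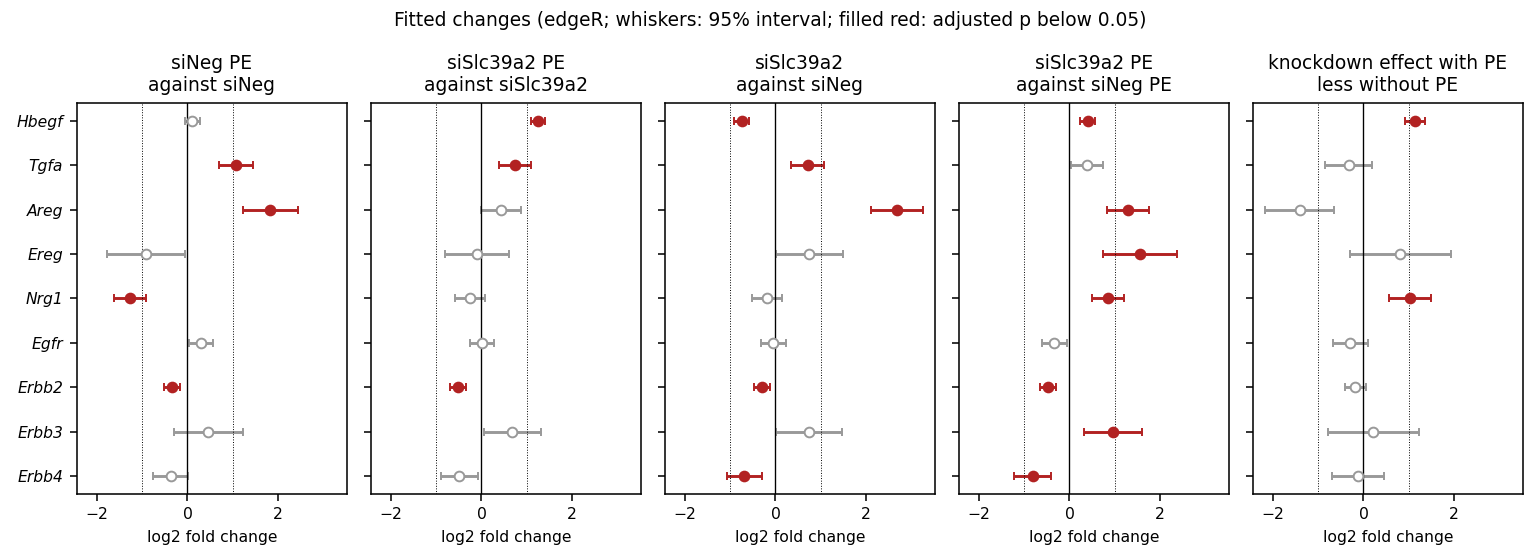
Fitted log2 fold changes (horizontal axes) of the 9 genes in the 4 comparisons and in the interaction. Whiskers are normal 95% intervals, filled red points passed the test, and dotted lines mark log2 fold changes of -1 and 1. Hbegf lies at -0.75 for knockdown without PE and at 0.40 for knockdown with PE.

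Hbegf, which encodes the heparin-binding ligand of EGFR and ERBB4, was the ligand with the highest FPKM in every group. It was at 18.2, 20.5 and 20.5 CPM in siNeg, 20.8, 21.0 and 21.9 in siNeg PE, 12.7, 11.5 and 11.1 in siSlc39a2, and 26.5, 28.8 and 28.5 in siSlc39a2 PE. No 2 groups overlapped, with the knockdown lowest without PE and highest with PE. PE in siNeg cells gave a log2 fold change of 0.11 (normal 95% interval -0.05 to 0.26) and did not pass (adjusted p = 0.28). Knockdown without PE lowered Hbegf, with a log2 fold change of -0.75 (SE 0.08, adjusted p = 1.03e-05), and knockdown with PE raised it by 0.40 (SE 0.08, adjusted p = 0.000965). PE in siSlc39a2 cells raised it 2.38-fold (log2 1.25, SE 0.08, adjusted p = 1.51e-07). The difference between the knockdown effects with and without PE was 1.14 on the log2 scale (SE 0.11, adjusted p = 0.000139), and it passed under all 19 alternative settings, with adjusted p between 1.66e-14 and 0.000949. Smooth muscle markers moved with Hbegf in part. All 7 fell with knockdown without PE, 4 rose and 2 fell with PE in siSlc39a2 cells, and the interaction was also higher for Acta2 (1.29, adjusted p = 6.88e-05), Cnn1 (1.71, adjusted p = 1.2e-05) and Tagln (1.25, adjusted p = 8.48e-05). With PE in siNeg cells, where Hbegf did not pass, 1 of the 7 markers rose (Cnn1, 2.57) and 3 fell, among them Tagln (-1.48). With knockdown with PE, where Hbegf rose, 1 marker rose, 1 fell and 5 did not pass. Of the 10 cardiomyocyte markers, 1 passed the interaction test, Actc1 (0.57, adjusted p = 0.00393). It rose with knockdown with PE (0.44) and with PE in siSlc39a2 cells (1.39), as Hbegf did. Unlike Hbegf, Actc1 also rose with PE in siNeg cells (0.83) and did not pass with knockdown without PE (-0.12, adjusted p = 0.131). The part of any cell type in the Hbegf values was not tested.

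Areg encodes amphiregulin, a ligand of EGFR. It was at 0.355, 0.189 and 0.591 CPM in siNeg, 1.36, 1.2 and 1.5 in siNeg PE, 2.49, 2.34 and 2.57 in siSlc39a2, and 3.84, 2.79 and 3.31 in siSlc39a2 PE. The groups stood in this order with no overlap, although the siNeg samples held few reads, the lowest of them 5. PE in siNeg cells raised Areg, with a log2 fold change of 1.83 (SE 0.31, adjusted p = 0.000437) and so did knockdown without PE, with 2.69 (SE 0.29, adjusted p = 8.25e-06). Knockdown with PE raised it by 1.29 (SE 0.24, adjusted p = 0.0006). PE in siSlc39a2 cells gave 0.43 (interval -0.02 to 0.88, adjusted p = 0.125). The knockdown effect was smaller with PE by 1.41 on the log2 scale, written as an interaction of -1.41 (SE 0.39), and this did not pass (adjusted p = 0.0648). It passed under 3 of 19 alternatives (adjusted p between 0.0195 and 0.152): with DESeq2, with the replicate block and without siNeg replicate 3.

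Tgfa, which encodes another EGFR ligand, was, like Areg, lowest in siNeg and highest in siSlc39a2 PE by group mean. It was at 1.70, 2.27 and 2.60 CPM in siNeg, 3.57, 5.63 and 4.59 in siNeg PE, 3.60, 3.59 and 3.55 in siSlc39a2, and 5.48, 5.80 and 6.69 in siSlc39a2 PE. The siNeg samples lay below all others, while siNeg PE overlapped both knockdown groups. PE raised Tgfa in siNeg cells (log2 fold change 1.07, SE 0.19, adjusted p = 0.000764) and in siSlc39a2 cells (0.74, SE 0.18, adjusted p = 0.00358). Knockdown raised it without PE (0.71, SE 0.19, adjusted p = 0.00905), and with PE the value was 0.38 (interval 0.03 to 0.73, adjusted p = 0.085). The latter passed without siNeg PE replicate 2 (0.55, adjusted p = 0.0292, range over 14 alternatives 0.0292 to 0.301). The interaction was -0.33 (interval -0.84 to 0.19, adjusted p = 0.615).

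Ereg encodes epiregulin, a ligand of EGFR and ERBB4. It was at 0.908, 0.493 and 0.512 CPM in siNeg, 0.147, 0.387 and 0.477 in siNeg PE, 1.07, 1.42 and 0.702 in siSlc39a2, and 0.783, 1.21 and 1.02 in siSlc39a2 PE. All values rest on few reads, down to 4 in a siNeg PE sample. The only one of the 4 comparisons that passed was knockdown with PE, in which Ereg rose by 1.56 (SE 0.42, adjusted p = 0.00589). Knockdown without PE gave 0.75 (interval 0.0 to 1.49, adjusted p = 0.12). The interaction was 0.81 (interval -0.3 to 1.93, adjusted p = 0.54), so a knockdown effect particular to PE was not shown. PE in siNeg cells gave -0.91 (interval -1.77 to -0.04, adjusted p = 0.0999).

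Nrg1, which encodes neuregulin 1, a ligand of ERBB3 and ERBB4, was the ligand that PE lowered. It was at 6.16, 8.41 and 9.18 CPM in siNeg, 2.58, 3.41 and 3.78 in siNeg PE, 6.43, 7.04 and 7.56 in siSlc39a2, and 5.67, 5.48 and 6.58 in siSlc39a2 PE. The siNeg PE samples lay below all others. PE lowered Nrg1 in siNeg cells, with a log2 fold change of -1.28 (SE 0.18, adjusted p = 0.00011), which is 2.43-fold. In siSlc39a2 cells the PE effect was -0.25 (interval -0.57 to 0.08, adjusted p = 0.221). Knockdown raised Nrg1 with PE (0.86, SE 0.18, adjusted p = 0.00117) and gave -0.18 without it (interval -0.50 to 0.15, adjusted p = 0.401). The interaction of 1.03 (SE 0.24, adjusted p = 0.0345) passed under all 7 settings that kept every sample (adjusted p between 0.00411 and 0.0366). Without 1 sample it passed in 2 of 12 fits, those without siNeg replicate 1 and without siNeg PE replicate 3, and the adjusted p ranged from 0.0107 to 0.0992. Neuregulin 1 is best known as a product of endothelial cells in the heart, and the summed endothelial markers were 20.1 ± 0.568 CPM in siNeg and 22.9 ± 3.95 in siNeg PE (SD, n = 3). Of the 7 endothelial markers tested, PE in siNeg cells raised Tek (0.57, adjusted p = 0.00866) and lowered Pecam1 (-1.27, adjusted p = 0.00665), and the part of endothelial cells in the Nrg1 values was not tested.

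Promoters are shown for Areg, Hbegf and Tgfa, the ligand genes with an entry in the RefSeq table, each of which passed in at least 2 comparisons. Of the 9 genes, 6 had a promoter in the RefSeq table of build GRCr8, which spans 250 bases before to 50 after each start, and only the 250 bases before the start are printed. Capitals mark a match of the cyclic AMP response element TGACGTCA and of the TATA box TATAAA in Areg (chr14:17265642-17265891, minus strand), and of the core of the metal response element, TGCACNC or TGCGCNC on either strand, in Hbegf (chr18:28390221-28390470, minus strand) and Tgfa (chr4:120175469-120175718, plus strand).
Areg: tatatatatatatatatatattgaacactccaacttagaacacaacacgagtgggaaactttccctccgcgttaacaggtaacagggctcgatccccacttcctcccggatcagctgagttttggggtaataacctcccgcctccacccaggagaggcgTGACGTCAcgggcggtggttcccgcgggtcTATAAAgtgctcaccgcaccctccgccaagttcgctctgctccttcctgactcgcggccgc
Hbegf: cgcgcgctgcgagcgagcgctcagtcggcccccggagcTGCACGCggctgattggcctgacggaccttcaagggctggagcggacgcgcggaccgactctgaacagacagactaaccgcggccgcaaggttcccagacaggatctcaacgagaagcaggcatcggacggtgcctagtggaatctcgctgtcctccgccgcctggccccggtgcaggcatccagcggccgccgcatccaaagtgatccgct
Tgfa: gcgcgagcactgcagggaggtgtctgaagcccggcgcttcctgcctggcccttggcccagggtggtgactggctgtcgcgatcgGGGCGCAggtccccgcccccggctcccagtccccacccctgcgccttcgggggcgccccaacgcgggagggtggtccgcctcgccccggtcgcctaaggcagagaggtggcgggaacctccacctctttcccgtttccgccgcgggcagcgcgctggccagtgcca
The cyclic AMP response element began at -91 from the start of Areg, and 1.83% of 33365 promoters of the same length held it. The TATA box letters began at -61 and were held by 14.2%. The metal response element letters began at -212 in Hbegf and at -166 in Tgfa, and 24.3% of all promoters held them. Egfr also held the metal response element letters, at -227 and 44, and no 2 matches overlapped. On either strand, none of the 6 promoters held the AP-1 letters TGACTCA (4.64% of all promoters), the GAS letters TTCNNNGAA (8.88%), or the ISRE (3.92%), SRE (1.63%), NF-kB (4.19%) and MEF2 (0.566%) motifs. A match is a description of letters and not of a bound site.

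Erbb2 encodes the receptor without a ligand of its own and was the receptor gene with the highest FPKM in every group. It was at 139, 145 and 144 CPM in siNeg, 105, 118 and 115 in siNeg PE, 129, 118 and 101 in siSlc39a2, and 86.9, 81.5 and 74.4 in siSlc39a2 PE. The siNeg samples lay above and the siSlc39a2 PE samples below all others, and the remaining groups overlapped. Some reads of Erbb2 were shared with other genes, since its expected counts were not whole, so its values are uncertain to that extent. PE lowered Erbb2 in siNeg cells (-0.34, SE 0.09, adjusted p = 0.00611) and in siSlc39a2 cells (-0.52, SE 0.09, adjusted p = 0.00029). The effect in siNeg cells passed under 12 of 14 alternatives. It did not pass with limma on log2(FPKM + 0.1) (-0.26, adjusted p = 0.0534) or on log2(count + 1) (-0.27, adjusted p = 0.052). Knockdown lowered Erbb2 without PE (-0.30, SE 0.09, adjusted p = 0.0119) and with PE (-0.48, SE 0.09, adjusted p = 0.00052). Without siSlc39a2 replicate 3 the knockdown effect without PE was -0.16 and did not pass (adjusted p = 0.129, range over 14 alternatives 0.00488 to 0.129). The interaction was -0.18 (interval -0.42 to 0.06, adjusted p = 0.543). The summed fibroblast markers, most of them Col1a1 and Col3a1 reads, were also highest in siNeg and lowest in siSlc39a2 PE, while Dcn, Lum, Pdgfra and Postn were highest in siNeg PE and Tcf21 in siSlc39a2. The part of fibroblasts in the Erbb2 values was not tested.

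Erbb4, which encodes the neuregulin receptor of cardiomyocytes, was lower after knockdown. It was at 4.86, 8.71 and 6.90 CPM in siNeg, 4.57, 6.19 and 5.03 in siNeg PE, 4.32, 4.03 and 4.33 in siSlc39a2, and 2.46, 3.35 and 3.2 in siSlc39a2 PE. The siNeg samples spread widely and overlapped siNeg PE, but not the knockdown groups. Knockdown lowered Erbb4 without PE (-0.69, SE 0.20, adjusted p = 0.0117) and with PE (-0.81, SE 0.21, adjusted p = 0.00481). Without siNeg replicate 2 the first of these was -0.48 and did not pass (adjusted p = 0.0681, range over 14 alternatives 0.0015 to 0.0681). PE gave -0.37 in siNeg cells (interval -0.76 to 0.01, adjusted p = 0.129) and -0.49 in siSlc39a2 cells (interval -0.90 to -0.08, adjusted p = 0.0571). The first of these passed under 4 of 14 alternatives, among them the fit without siNeg replicate 1 (-0.57), and the second under 6 of 14.

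Egfr, which encodes the receptor of HB-EGF, amphiregulin and TGF-alpha, did not pass in any of the 4 comparisons. It was at 9.60, 12.4 and 13.2 CPM in siNeg, 13.0, 15.5 and 14.7 in siNeg PE, 12.5, 10.1 and 11.4 in siSlc39a2, and 10.3, 10.5 and 13.5 in siSlc39a2 PE. The values nearest to a change were 0.30 for PE in siNeg cells (interval 0.02 to 0.58, adjusted p = 0.0996) and -0.34 for knockdown with PE (interval -0.62 to -0.06, adjusted p = 0.0558). The latter passed under 6 of 14 alternatives, among them the fits without siNeg PE replicate 1 (-0.41) and without siSlc39a2 PE replicate 3 (-0.48), with adjusted p between 0.00346 and 0.171. Knockdown without PE gave -0.05 (interval -0.33 to 0.23).

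Erbb3, which encodes the partner receptor with little kinase activity, was at 0.237, 0.303 and 0.355 CPM in siNeg, 0.258, 0.352 and 0.624 in siNeg PE, 0.449, 0.474 and 0.585 in siSlc39a2, and 0.709, 0.690 and 1.02 in siSlc39a2 PE. Its expected counts were low, down to 5.8 in a siNeg sample, and not whole, so reads shared with other genes bear on them. Knockdown without PE gave 0.74 (interval 0.0 to 1.47, adjusted p = 0.116). The interaction was 0.22 (interval -0.77 to 1.21, adjusted p = 0.89), so a knockdown effect particular to PE was not shown. Knockdown with PE raised Erbb3 by 0.96 (SE 0.33, adjusted p = 0.024). This call was lost without siNeg PE replicate 1 (0.72, adjusted p = 0.1), without siNeg PE replicate 2 (0.86, adjusted p = 0.085) and without siSlc39a2 PE replicate 3 (0.76, adjusted p = 0.108). It was also lost with DESeq2, with the compared groups alone and with limma on log2(FPKM + 1), so 8 of 14 alternatives passed, and the adjusted p ranged from 0.00279 to 0.159 over 14 alternatives.

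Comparing siSlc39a2 PE with siNeg, a contrast added after the values were seen to order the groups, 7 of the 9 genes passed beside 75.3% of all genes. Areg was 8.69-fold higher (log2 3.12, SE 0.29, adjusted p = 6.11e-07), Tgfa 2.73-fold and Erbb3 2.67-fold. Hbegf was 1.42-fold higher. Erbb4 was 2.27-fold lower (log2 -1.18, SE 0.21, adjusted p = 0.00016) and Erbb2 1.76-fold lower. Nrg1 was 1.34-fold lower, with groups that overlapped. The adjusted p-values do not allow for the choice of these groups by the same values.

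Per length, Erbb2 made up most of the receptor transcripts, at 89.7% ± 1.8 of the summed FPKM of the 4 receptors in siNeg, 87.7% ± 0.557 in siNeg PE, 90.1% ± 1.42 in the siSlc39a2 samples and 88.1% ± 2.13 in siSlc39a2 PE (SD, n = 3). Summed receptor FPKM was 32.5 ± 1.97, 27.6 ± 2.18, 29.0 ± 2.87 and 19.9 ± 1.02 in the same order. Among the ligands, Hbegf made up 75.4% ± 1.45 of the summed FPKM in siNeg, 77.6% ± 3.04 in siNeg PE, 52.4% ± 2.08 in the siSlc39a2 samples and 69.4% ± 1.16 in siSlc39a2 PE. Areg went from 2.13% ± 1.06 in siNeg to 7.53% ± 0.791 in siNeg PE, 16.6% ± 1.44 in the siSlc39a2 samples and 12.4% ± 2.3 in siSlc39a2 PE. Summed ligand FPKM was 15.8 ± 1.42, 17.1 ± 0.946, 14.7 ± 0.464 and 25.5 ± 1.09, so siSlc39a2 PE samples had the highest ligand sum and the lowest receptor sum. No test was made on these sums and shares.

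**Figure D3:**
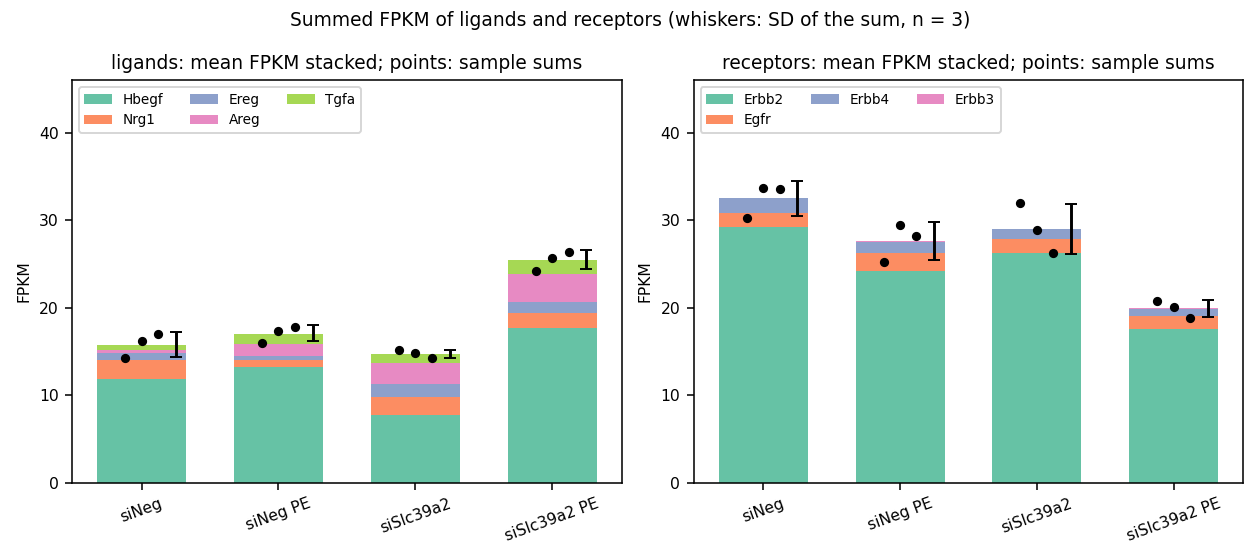
Mean FPKM of the ligands (left) and receptors (right) stacked by gene for each group, on axes from 0. Points are the sums in single samples and whiskers the SD of the sum (n = 3). The ligand sum is 25.5 and the receptor sum 19.9 in siSlc39a2 PE, the only group in which the ligands exceed the receptors.

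The ratio of CPM of the total count to FPKM, which has the unit kb, was compared for the 6 genes with an FPKM of at least 0.3 in every sample. For Egfr it was 6.74, 6.77 and 6.49 kb in siNeg, 7.02, 7.25 and 7.17 in siNeg PE, 7.06, 7.46 and 6.88 in siSlc39a2, and 7.53, 7.79 and 7.81 in siSlc39a2 PE. The siNeg samples lay below and the siSlc39a2 PE samples above all others. For Tgfa the mean was 3.25 kb in siNeg, 3.80 in siNeg PE, 3.75 in the siSlc39a2 samples and 3.73 in siSlc39a2 PE, again without overlap of siNeg with the others. Between siNeg PE and siNeg, 2.36% of 11932 genes had ratios that did not overlap and differed by over 5%, and between siSlc39a2 and siNeg 2.66% did. The shares were 3.08% between siSlc39a2 PE and siNeg PE, 2.76% between siSlc39a2 PE and siSlc39a2, and 4.84% between siSlc39a2 PE and siNeg. Erbb2 and Erbb4 kept mean ratios of 4.64 to 4.65 and 3.97 to 3.98 kb. For Egfr and Tgfa, FPKM and CPM therefore do not give the same fold between groups, and the transcripts behind these ratios were not analysed here.

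**Figure D4:**
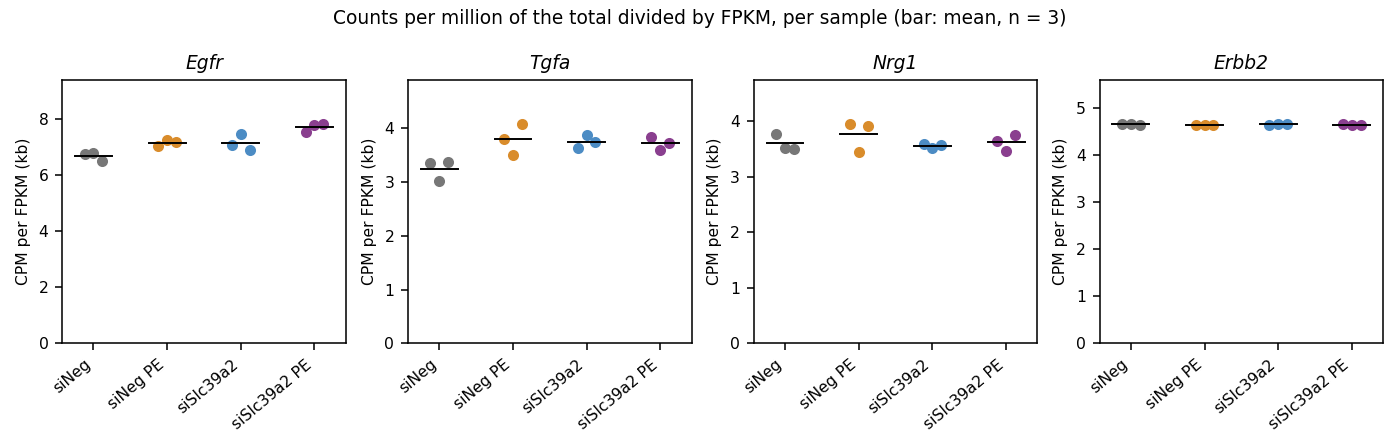
CPM of the total count divided by FPKM (kb, axes from 0) for Egfr, Tgfa, Nrg1 and Erbb2. Points are samples and bars the mean of 3. Egfr goes from a mean of 6.66 in siNeg to 7.71 in siSlc39a2 PE, and Erbb2 stays at 4.64 to 4.65.

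Genes linked to the ligands and receptors were described from lists. Of 6 other EGF family ligands only Btc, which encodes betacellulin, passed the filter. Its level was 0.235 CPM in siNeg and 0.686 in siSlc39a2, and it rose with knockdown without PE (1.53, SE 0.37, adjusted p = 0.0037) and with PE (1.31, SE 0.38, adjusted p = 0.00958). It is named after its values were seen. In what follows, so are Adam17, Adam9, Rhbdl2, Bace1, Rhbdf2, Rhbdf1, Adam8, Adam12, Adam19, Timp3, Errfi1, Dusp5, Myc and Plcg1.

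Of 13 genes of ligand shedding, 4 rose and 5 fell with PE in siNeg cells (median log2 fold change 0.17, -0.01 over all genes), where 49.7% of all genes passed. With knockdown without PE, 2 rose and 6 fell (median -0.19, -0.02 over all genes), where 49.2% of all genes passed. Adam17, the protease that releases many EGFR ligands, was at 15.7 CPM in siNeg, 25.2 in siNeg PE, 29.9 in the siSlc39a2 samples and 50.2 in siSlc39a2 PE (means). It rose with PE (0.68, SE 0.16, adjusted p = 0.00412), with knockdown (0.93, SE 0.16, adjusted p = 0.000407) and with knockdown in the presence of PE (1.00, SE 0.16, adjusted p = 0.000155). Rhbdf2, which encodes a rhomboid-like protein needed for ADAM17 maturation, fell with PE (-0.50, adjusted p = 0.000643) and rose with knockdown (0.63, adjusted p = 5.38e-05). Adam15, a related metalloprotease, fell with knockdown (-1.19, SE 0.09, adjusted p = 2.4e-07). Adam17 and Rhbdf2 were the 2 genes of the list that rose with knockdown without PE. Besides Adam15, those that fell were Adam8 (-0.60), Adam12 (-0.92), Adam19 (-0.37), Timp3 (-0.39) and Rhbdf1 (-0.19, adjusted p = 0.0349). With PE in siNeg cells, the genes that rose besides Adam17 were Rhbdl2 (2.05, adjusted p = 0.0011), Adam9 (0.98, adjusted p = 0.000311) and Bace1 (0.21, adjusted p = 0.00735). Rhbdl2 rests on few reads, with a mean of 0.143 CPM in siNeg. Besides Rhbdf2, those that fell were Adam15 (-0.56), Timp3 (-0.43), Rhbdf1 (-0.33, adjusted p = 0.00196) and Adam19 (-0.18).

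The list of receptor inhibitors and turnover also held Spry1, Spred1, Spred2 and Spred3, which act on the pathway downstream. Of its 14 genes tested, 6 rose and 1 fell with PE in siNeg cells (median 0.24), beside 49.7% of all genes. With knockdown without PE, 4 rose and 1 fell (median 0.19), beside 49.2%. The gene that fell with knockdown was Errfi1, which encodes the feedback inhibitor MIG6 and whose counts were not whole. Its log2 fold change was -0.69 without PE (SE 0.08, adjusted p = 1.29e-05) and -0.71 with PE (SE 0.08, adjusted p = 8.79e-06). Of 24 adaptors and kinases tested, 11 rose and 6 fell with PE in siNeg cells (median 0.08), beside 49.7% of all genes, and 9 rose and 4 fell with knockdown without PE (median 0.22), beside 49.2%. Pik3cb, a catalytic subunit of PI3K whose counts were not whole, rose with PE (1.17, SE 0.15, adjusted p = 7.41e-05).

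Of 15 ERK target genes, 6 rose and 1 fell with PE in siNeg cells (median 0.11), beside 49.7% of all genes. With knockdown, 9 rose and 3 fell both without PE (median 0.33, beside 49.2% of all genes) and with PE (median 0.40, beside 57.3%). With PE, Etv4, a transcription factor, rose by 1.18 (SE 0.16, adjusted p = 0.000114), Dusp4, an ERK phosphatase, by 1.08 (SE 0.17, adjusted p = 0.000334) and Phlda1 by 1.06 (SE 0.06, adjusted p = 1.65e-07). With knockdown, Dusp6, another ERK phosphatase, rose by 1.15 (SE 0.09, adjusted p = 5.63e-07) and Ccnd1, which encodes cyclin D1, by 1.10 (SE 0.13, adjusted p = 1.94e-05). Dusp5 fell with knockdown without PE (-0.59, SE 0.11, adjusted p = 0.000654) and with PE (-1.38, SE 0.11, adjusted p = 4.88e-07), so the members of the list did not move as one. Phosphorylation of ERK or of the receptors is not measured by RNA-seq.

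**Figure D5:**
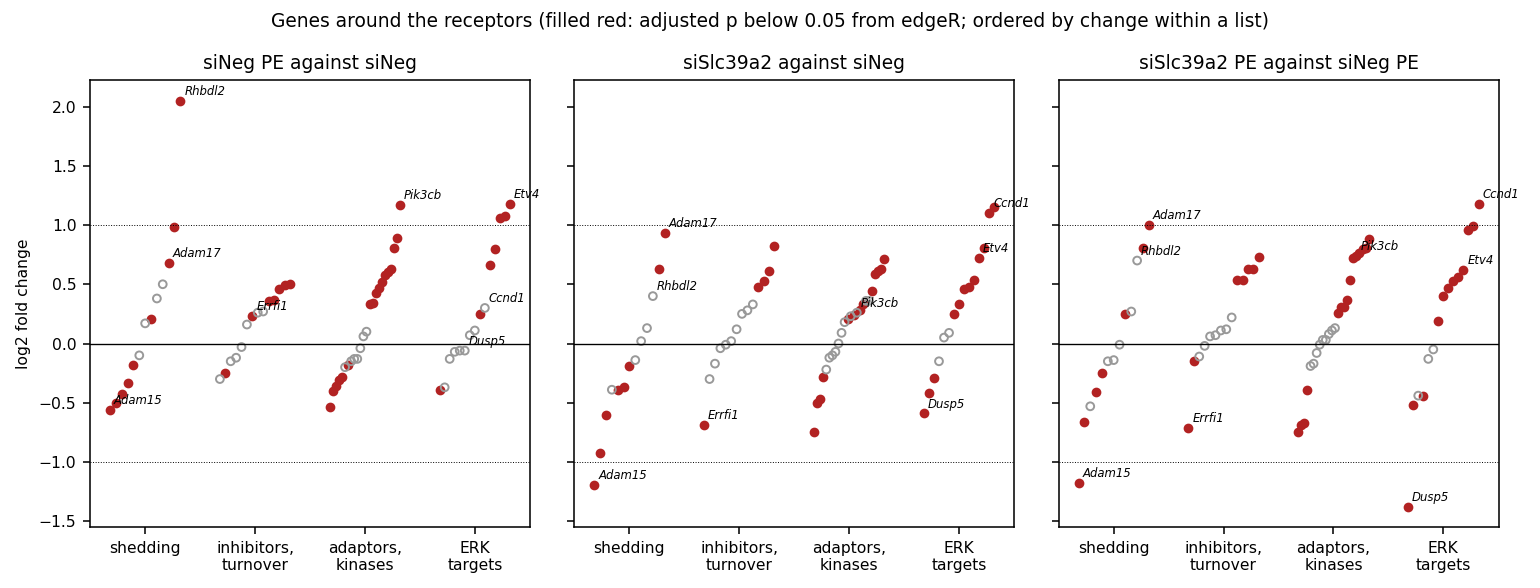
Log2 fold changes (vertical axis) of the genes tested in 4 lists for PE in siNeg cells, knockdown without PE and knockdown with PE, ordered within each list. Filled red points passed the test, open points did not, and dotted lines mark -1 and 1. Adam17 is at 0.68, 0.93 and 1.00 and Adam15 reaches -1.19 with knockdown.

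Over the 12 samples, the genes whose log2 CPM, centred on the gene mean, differed least from Nrg1 were Igfbp3 (mean absolute difference 0.136), Vegfc (0.14) and Nkd2 (0.176), where the median over 11747 genes was 0.505. For Tgfa they were Ammecr1 (0.102), Cd38 (0.107) and Flrt2 (0.115), with a median of 0.517. For Areg they were Ncoa7 (0.321), Tent5a (0.326) and Crym (0.346), with a median of 0.994 over 11748 genes.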

How the data were processed

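RNA-seq of 12 NRVM samples in 4 groups was analysed. The authors deposited expected counts per gene, not normalized, and FPKM of the same 18483 genes. Of the counts, 78.7% were whole. The submitters' processing notes name HISAT, Bowtie2 and build Rnor_6.0, and the counting program and annotation are not given in the sources used here. The study's methods name normalizeBetweenArrays and limma. Columns of values not used numbered 0.

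Counts were rounded, filtered by filterByExpr (4516 genes left out), TMM-normalized and fitted in edgeR 4.0.16 (R 4.3.3) in 1 model with 8 residual degrees of freedom, with quasi-likelihood tests and Benjamini-Hochberg adjustment over 13967 genes. Intervals are normal 95% intervals from the standard errors. Log2 CPM used a prior count of 2. Alternatives were DESeq2 1.42.0, RLE, no filter, the compared groups alone, a replicate block, limma 3.58.1 (quantile-normalized log2 of counts + 1, or of FPKM with a pseudocount of 1 or 0.1), and leaving out each sample. The edgeR step was tested on simulated counts for siSlc39a2 against siNeg, where it recovered 89 of 100 genes at 2-fold and 99 of 100 at 4-fold, with 8 false calls among 13836 genes. The simulation gave all genes the same dispersion and changed only 200 genes, none of them with few reads. These rates therefore do not carry over to genes with few reads. P-values measure the spread between cultures, and few reads limit the precision of Areg, Ereg, Erbb3, Btc and Rhbdl2.

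Named genes were the 9 ligand and receptor genes, Slc39a2, from each list up to 3 genes with the largest change past an absolute log2 fold change of 1 and a mean log2 CPM above 1 in the PE effect in siNeg cells or the knockdown effect without PE, and the 3 genes most like each ligand or receptor past that threshold. The genes, lists and markers were chosen with earlier results of these data known.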

Additional observations from a re-analysis of the deposited data

Results flagged for a closer look

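The knockdown effect differed between cells with and without PE for Hbegf, by 1.14 on the log2 scale (adjusted p = 0.000139 by edgeR's interaction test), and every siSlc39a2 PE sample lay above and every siSlc39a2 sample below the siNeg and siNeg PE samples. It also differed for Nrg1, by 1.03 (adjusted p = 0.0345), but this passed in only 2 of 12 fits without 1 sample. For Phlda1, among the ERK target genes, the knockdown effect was 0.54 without PE and -0.13 with PE, a difference of -0.67 (adjusted p = 0.0012). Of the 15 ERK target genes, 1 was higher and 2 were lower in this test. The others that passed were Myc (0.51, adjusted p = 0.0237) and Dusp5 (-0.79, adjusted p = 0.0124). Among the adaptors and kinases, Plcg1 passed (-0.47, adjusted p = 0.0227). Of all genes tested, 3.61% passed this test.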

How the results depend on the processing

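Of 349 log2 fold changes of the 9 genes recomputed with every sample kept, 311 kept their direction and their side of the threshold, 23 passed where they had not, 7 no longer passed and 8 changed sign. Of 324 without 1 sample, 294 kept both, 5 passed, 15 no longer passed and 10 changed sign. With limma on log2(FPKM + 1), which compresses low values, 0 genes were past an absolute log2 fold change of 1 for PE in siNeg cells and 0 for knockdown with PE, and 1 gene rose with knockdown without PE. For PE in siSlc39a2 cells, 2 genes fell with RLE, with the compared groups alone and with the replicate block, and 3 with each limma fit. In the interaction, 1 gene was lower with DESeq2 and with the replicate block, and 1 was past the threshold without the filter and with limma on log2(FPKM + 1). Without 1 sample, interactions had 1 to 2 genes higher, 0 to 1 lower and 1 to 2 past the threshold. The cause of these moves was not tested.

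Among values that changed sign, none of which had passed, Egfr with PE in siSlc39a2 cells was -0.01 with DESeq2, RLE or no filter, -0.0 with the block, and with limma -0.15 and -0.23 on FPKM (pseudocounts 1 and 0.1) and -0.1 on counts. Without 1 sample it ranged from -0.13 to 0.09, Egfr with knockdown without PE from -0.18 to 0.04, Ereg with PE in siSlc39a2 cells from -0.34 to 0.17, the Erbb3 interaction from -0.02 to 0.64 and the Erbb4 interaction from -0.33 to 0.08. The Erbb4 interaction was 0.02 with limma on log2(FPKM + 1).

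The sources used here do not say whether same-numbered samples belong together, and the main fit did not pair them. Deviations of same-numbered samples correlated above 0.1 in 8 of 18 pairs (r from -0.0904 to 0.32). Among siNeg, siNeg PE and siSlc39a2 PE, r was 0.315, 0.228 and 0.32 for replicates 1. It was 0.0535, 0.00722 and 0.00387 for replicates 2, and 0.206, 0.13 and 0.122 for replicates 3. Replicate 1 of siSlc39a2 had r of -0.0107, -0.00252 and 0.0229 with replicates 1 of siNeg, siNeg PE and siSlc39a2 PE. Samples with different numbers reached an r of 0.236, between siSlc39a2 replicate 2 and siSlc39a2 PE replicate 1. A batch shared by same-numbered samples was not tested. With the replicate block, Tgfa and Egfr passed for knockdown with PE (0.39 and -0.35), Erbb3 and Erbb4 for PE in siSlc39a2 cells (0.66 and -0.51), and Areg in the interaction (-1.43).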

Other observations

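Replicate 1 of siNeg was the lowest of its group for 7 of the 9 ligand and receptor genes, where it was the lowest for 42.5% of all genes tested, and replicate 1 of siNeg PE for 8 of 9, beside 39.6%. Of the other EGF family ligands, Nrg4 was at 0 CPM in all groups except siNeg, where its mean was 0.0126 CPM, and Egf, Nrg2 and Nrg3 did not pass the filter on low counts.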
